A study of Mus musculus with 13 samples.

Results

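The 53 genes described here encode the machinery that copies DNA in S phase, together with the regulators that switch it on. They were taken by symbol from a fixed list of origin licensing factors, replisome subunits, enzymes of nucleotide supply, chromatin assembly factors and G1/S regulators, and all 53 were found among the 55642 genes of the count table. All 53 passed the filter on low counts, which kept 16848 genes. RNA came from C2C12 cells, a mouse skeletal muscle myoblast line that divides in serum-rich medium and leaves the cell cycle when it fuses into myotubes. Cells were reverse transfected with nontargeting siRNAs (siNT, control KD) or with siRNAs to YBX3 (siYBX3, YBX3 KD), a Y-box protein that binds RNA and DNA. At 24 h the medium either stayed the same, with 10% fetal bovine serum (proliferating myoblasts, 0 day), or was replaced by medium with 10% horse serum (differentiating myoblasts, 1 day). All cultures carried an siRNA and were harvested 48 h after transfection. Replicates carry a letter. At 0 day, control KD and YBX3 KD each have letters A to D, and at 1 day control KD has C and D while YBX3 KD has B to D, which makes 13 libraries. The titles call them biological replicates and no source says which cultures were grown separately, so p-values measure the spread between these libraries.

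Before S phase, the origin recognition complex, Cdc6 and Cdt1 load the ring of MCM2 to MCM7 onto DNA, which licenses an origin, and geminin (Gmnn) blocks reloading. Cdc45 and the GINS complex then turn the ring into an active helicase, the primase and polymerases copy both strands, and the sliding clamp PCNA, set by the RFC clamp loader, holds the polymerases on the template. Transcription factors of the E2F family, released when cyclin and CDK activity rises at the G1/S boundary, drive many of these genes, so their mRNA levels are widely used as a measure of how many cells in a population are cycling. In bulk RNA, a smaller share of cells in S phase and less of each mRNA per cell cannot be told apart.

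Some of the genes carry, near their start sites, letters that E2F proteins are known to read. The 8-base words TTTCCCGC, TTTCGCGC, TTTGCCGC and TTTGGCGC were searched on both strands from 250 bases before to 50 bases after the annotated start (GRCm39, GENCODE vM39), with overlapping matches counted separately. At least 1 word stood in 16 of the 53 promoters (30.2%), against 495 of the 13111 promoters of all tested protein-coding genes (3.78%). The CCAAT box, read on both strands and known as the core of the Y-box after which YBX proteins are named, stood in 30 of the 53 (56.6%) against 40.6% of all promoters. Both occurred together in 13 of the 53 (24.5%) against 1.69%. The windows below are shown because they belong to helicase subunits, a clamp loader subunit, a polymerase, an E2F gene and a fork protection gene whose levels are described later. They run 5′ to 3′ on the gene's strand, capitals mark the matched letters (ATTGG is the CCAAT box on the other strand), and positions count from the annotated start site as 0. Windows that reach into transcribed sequence were kept to at most 30 bases.

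Mcm4, chr16:15455311-15455366, minus strand, E2F word at -78: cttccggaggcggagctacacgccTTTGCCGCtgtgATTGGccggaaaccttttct
Mcm5, chr8:75835964-75836019, plus strand, overlapping E2F words, the nearer at -152: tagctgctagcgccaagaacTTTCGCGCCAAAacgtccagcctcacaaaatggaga
Mcm6, chr1:128287458-128287513, minus strand, E2F word at -37: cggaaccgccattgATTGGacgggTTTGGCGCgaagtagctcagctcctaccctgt
Pola1, chrX:92675868-92675923, minus strand, E2F word at -86: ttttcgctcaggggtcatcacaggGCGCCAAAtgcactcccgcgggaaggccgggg
Mcm3, chr1:20890499-20890528, minus strand, E2F word at 19: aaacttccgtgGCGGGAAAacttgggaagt
Rfc3, chr5:151574665-151574694, minus strand, E2F words at 24 and 34: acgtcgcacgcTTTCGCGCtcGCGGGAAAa
E2f2, chr4:135899613-135899634, plus strand, E2F word at 39: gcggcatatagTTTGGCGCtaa
Tipin, chr9:64188837-64188866, plus strand, E2F word at 16: gcctacccttgGCGCCAAAtttctcagctt

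A match is a description of letters and not of binding. Mcm2 and Mcm7 held none of the E2F words in the searched window, and Mcm7 held no CCAAT box there.

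The siRNAs listed for mouse YBX3 are shown because a guide can also lower mRNAs that match its seed. For 3 of the 4 listed siRNAs the sense and antisense strands are complementary, and their 19-base guide strands are given with the seed, bases 2 to 8, in capitals. Which of them were pooled for the sequenced cultures was not given in the sources used here.

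siRNA 05: uAUAGUUGuagggacgucg
siRNA 06: aUAGUAGCcgcgucuguac
siRNA 08: aUACUUGCguggguuguuu

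The word complementary to the seed occurred in the 3′ UTRs of 2, 1 and 4 of the 53 genes for siRNA 05, 06 and 08 (3.77%, 1.89% and 7.55%), against 6.72%, 4.9% and 6.84% of the 12933 UTRs searched. Mcm10 and Chaf1a held the match for siRNA 05, Chaf1a that for siRNA 06, and Mcm3, Mcm5, Gins2 and Rpa1 that for siRNA 08. The other 47 genes held no such word in their canonical 3′ UTR.

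Library totals ranged from 33451547 to 71811371 counts. Values in CPM are a gene's counts per 1000000 counts in its library, scaled by the trimmed mean of M-values. Ybx3, the targeted gene, was at 316, 311, 334 and 265 CPM in control KD 0 day A to D and 347 and 294 CPM in control KD 1 day C and D. In YBX3 KD it was at 46.6, 40.3, 42.9 and 37.9 CPM at 0 day (A to D) and 47.0, 71.5 and 28.7 CPM at 1 day (B to D), so every library stood on the side its label gives. Of the myoblast markers, Myf5 (31.3 to 73.5 CPM), Cdh15 (99.6 to 163 CPM) and Des (15.5 to 54.8 CPM) were present in all 13 libraries, and Myod1, a defining marker of the lineage, was low at 0.60 to 3.32 CPM. Myogenin (Myog), an early marker of differentiation, stayed between 0.05 and 3.46 CPM in every library, those at 1 day included.

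The 4 libraries of letter D stood apart in these genes. Within their own group, D was below every other library for all 53 genes in control KD at 0 day, YBX3 KD at 0 day and YBX3 KD at 1 day, and for 52 of 53 in control KD at 1 day. Over all tested genes that share was 38.3%, 33.6%, 40.9% and 50.6%. The median log2 ratio of D to the other libraries of its group over the 53 genes was -1.35 in control KD at 0 day, -0.37 in control KD at 1 day, -0.62 in YBX3 KD at 0 day and -1.79 in YBX3 KD at 1 day. The same median over all genes lay between -0.01 and 0.02. In control KD letter D the change over the day also went against that in the other letters. In the fit without letter D, 161 of all genes passed over the day by edgeR. The ratio of 1 day to 0 day had the direction of that fit for 118 of them (73.3%) in YBX3 KD letter D, but for 39 (24.2%) in control KD letter D. Letters B and C made the fit, so that all 161 had its direction there is no test. Libraries are named by their labels throughout, and whether the control KD libraries of letter D were exchanged, or why letter D stands apart, was not tested. Counts of genes that passed are given with and without letter D, and where a single gene has a value without D only, the range of its role with all libraries stands beside it.

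As a whole, the genes took 0.547 to 0.592% of the counts in control KD libraries A to C, 0.431 to 0.488% in YBX3 KD libraries A to C, and 0.137 to 0.456% in the libraries of letter D. The geometric mean of the 53 levels was 74.6, 74.1, 75.8 and 28.1 CPM in control KD at 0 day (A to D) and 78.4 and 60.2 CPM in control KD at 1 day (C and D). It was 57.2, 61.5, 61.5 and 39.1 CPM in YBX3 KD at 0 day (A to D) and 64.6, 59.4 and 16.8 CPM in YBX3 KD at 1 day (B to D). Leaving letter D aside, the 5 YBX3 KD libraries lay at 76.5 to 86.3% of the mean of control KD 0 day A to C, and the 4 control KD libraries at 99 to 105%, so the groups did not overlap. With letter D they overlapped widely, since control KD 0 day D stood at 37.6% and YBX3 KD 1 day D at 22.4%.

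**Figure D1:**
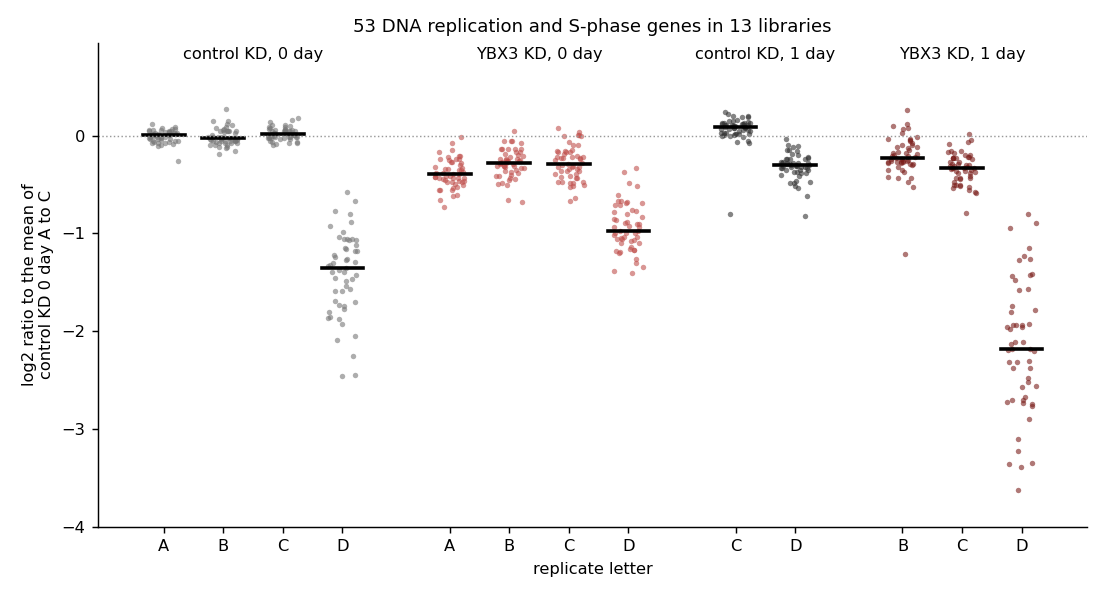
Log2 ratio of each of the 53 genes (points) to its mean in control KD 0 day A to C, by library, with the library median as a bar; the dotted line marks no difference. YBX3 KD libraries A to C lie below the control KD libraries A to C, and the D library is the lowest of each group, at 37.6% of the reference in geometric mean for control KD 0 day and 22.4% for YBX3 KD 1 day.

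Levels differed widely between the genes. Per kilobase of the canonical transcript, in control KD 0 day A to C, the highest were Rrm2 (194 CPM per kb), the regulated subunit of ribonucleotide reductase, Pcna (136 CPM per kb), the sliding clamp, and Tk1 (106 CPM per kb), thymidine kinase. The lowest were E2f2 (5.49 CPM per kb), a transcription factor, Gins3 (5.62 CPM per kb), a GINS subunit, and Orc1 (6.39 CPM per kb), the largest subunit of the origin recognition complex.

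The first comparison asks which mRNAs depend on YBX3 at either time. Over both time points, with all 13 libraries and the day as a covariate, each of the 53 genes had a lower fitted level in YBX3 KD, with a median log2 fold change of -0.34 and a range from -0.62 (Pold2) to -0.04 (Ccne2 and E2f1). The median over all tested genes was 0.00. With YBX3 KD 1 day D alone left out the median of the 53 was -0.19, and with control KD 0 day D alone left out it was -0.51. None of the 53 passed edgeR's quasi-likelihood test at an adjusted p of 0.05, where 2.34% of all tested genes did in either direction and 1.04% were lower. At an unadjusted p under 0.05 the count was 2 of 53 by edgeR and 2 by DESeq2, which called 0 after adjustment, against 15.6% and 17.8% of all genes. With sample quality weights, limma-voom called 14 lower, against 8.57% of all genes. With a block for the letter, which pairs libraries that share it, edgeR called 2 genes, Pold2 and Rpa3, where 4.38% of all genes were called lower. The median was then -0.44, and 21 of the 53 had an unadjusted p under 0.05 against 28.4% of all genes.

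Without the 4 letter D libraries the median log2 fold change was -0.35, close to that with all libraries, while the spread between replicates was much smaller. Of the 53 genes, 42 then fell at an adjusted p under 0.05 and none rose, against 6.68% of all 17271 genes tested in that fit that were called lower. The libraries left out are those in which these same genes were low. They include the 0 day pair of letter D, in which 51 of the 53 were higher in YBX3 KD (median log2 ratio 0.43). The 1 day pair of letter D, also left out, had a median of -1.84. These pairs lie on opposite sides of the median over both time points. Its closeness with and without D therefore does not show that it is independent of letter D. The spread and adjusted p without D therefore hold given that choice and do not measure the spread over all 13 libraries. At the stricter limit that the study used (a change over 1.3-fold and an adjusted p under 0.001), 7 of the 53 were called, Asf1b, Uhrf1, Chaf1b, Mcm7, Lig1, Mcm5 and Tyms, against 0.382% of all genes called lower. In 36 of the 53, every YBX3 KD library lay below every control KD library, against 7.16% of all genes. With all 13 libraries this held for 0 of the 53, against 1.08%. The 11 genes that did not pass without letter D were Orc6, Cdt1, Mcm10, Gins3, Rfc1, Prim1, Pole2, Rrm2, Dut, Ccne2 and E2f1.

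**Figure D2:**
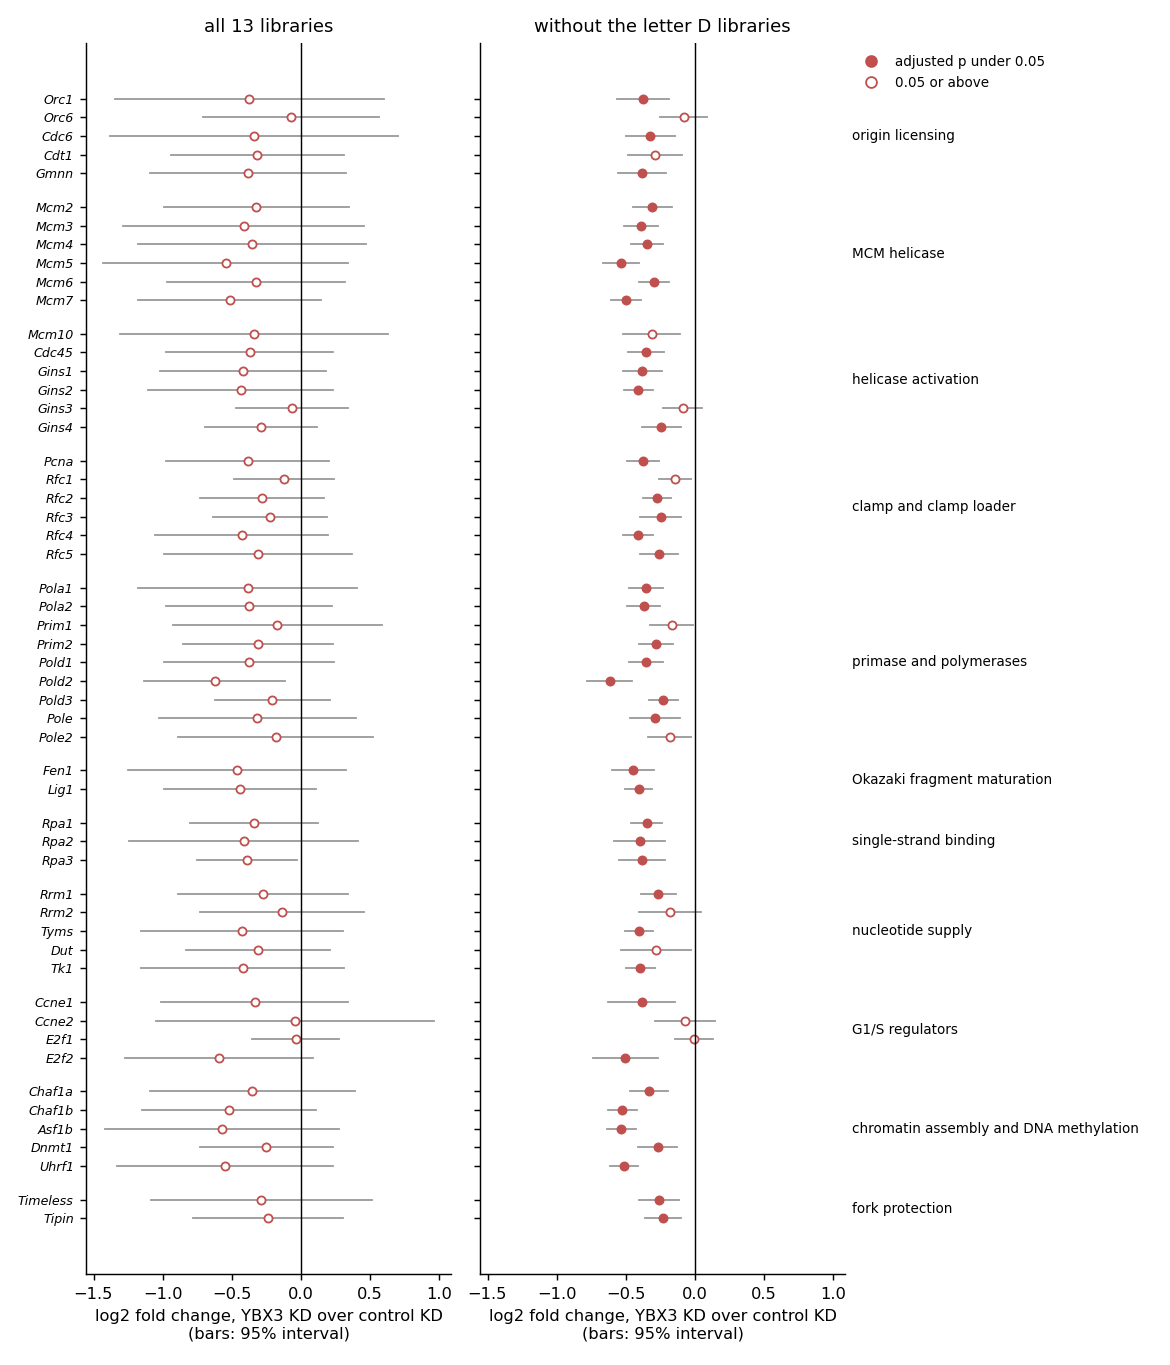
Log2 fold change of YBX3 KD over control KD for each gene, ordered by role, with 95% intervals as bars, from all 13 libraries (left) and without letter D (right); filled points have an adjusted p under 0.05. On the left no point is filled, with values from -0.62 to -0.04, and on the right 42 of 53 are filled, all below 0.

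Of the 5 genes of origin licensing, 3 fell without letter D. Orc1 (log2 fold change -0.37, SE 0.08, edgeR adjusted p = 0.0187), the ATPase Cdc6 that helps load the helicase (-0.32, SE 0.08, 0.0275) and the licensing inhibitor Gmnn (-0.38, SE 0.08, 0.0127) passed. Cdt1, the partner of Cdc6, missed the threshold at -0.29 (adjusted p = 0.0570), and Orc6 had a value of -0.08 (adjusted p = 0.535). The loader Cdc6 and the inhibitor Gmnn were thus both among the genes that fell. With letter D, the 5 fold changes ran from -0.38 to -0.07 and none passed.

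All 6 subunits of the MCM2-7 helicase, the ring that unwinds DNA at the fork, fell without letter D. Mcm5 (chr8:75836140-75856231, GRCm39) was at 219, 214, 236 and 58.8 CPM in control KD 0 day A to D and 225 and 167 CPM in control KD 1 day C and D. In YBX3 KD it was at 141, 157, 161 and 97.0 CPM at 0 day (A to D) and 166, 151 and 21.3 CPM at 1 day (B to D). Leaving letter D aside, the YBX3 KD libraries lay at 141 to 166 CPM, all below the lowest control KD library at 214 CPM. The log2 fold change was -0.54 (SE 0.41, adjusted p = 0.576) with all libraries and -0.53 (SE 0.06, adjusted p = 0.000830) without D. Mcm7 stood beside it, from 270.0 ± 10.3 CPM (SD, 4 control KD libraries) to 193 ± 10.2 CPM (SD, 5 YBX3 KD libraries) without D, a log2 fold change of -0.50 (SE 0.05, adjusted p = 0.000504). Mcm3 (-0.39), Mcm4 (-0.35), Mcm2 (-0.31) and Mcm6 (-0.29) followed on the log2 scale, with adjusted p from 0.00245 to 0.0132. None of the 6 overlapped between the groups without D, and with all libraries their fold changes lay between -0.54 and -0.32 with none passing. The subunits act as 1 ring of 6, and their YBX3 KD levels without D lay at 69.4 to 82.5% of control.

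**Figure D3:**
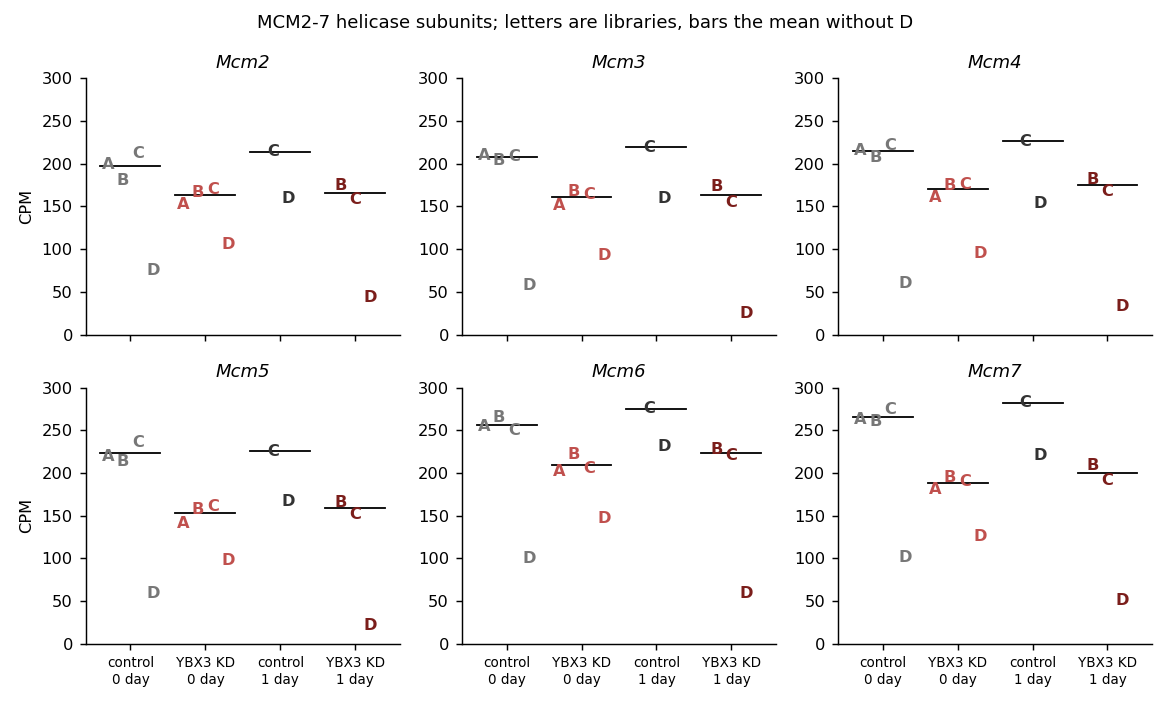
CPM of the 6 MCM2-7 subunits in every library, marked by its replicate letter, with the group mean without D as a bar (1 library in control KD 1 day). In each subunit the YBX3 KD libraries A to C lie below the control KD libraries A to C, and the order of the D libraries is control KD 1 day, YBX3 KD 0 day, control KD 0 day, YBX3 KD 1 day.

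Of the 6 genes of helicase activation, 4 fell without letter D. Gins2 (-0.41, adjusted p = 0.00102) and Gins1 (-0.38, adjusted p = 0.00487), subunits of the complex that joins MCM2-7 to the polymerase, fell, as did Cdc45 and Gins4. Cdc45, which bridges the complex, was at 49.3, 51.6, 46.7 and 21.6 CPM in control KD 0 day A to D, 56.3 and 41.5 CPM in control KD 1 day C and D, 35.8, 40.9, 39.2 and 25 CPM in YBX3 KD 0 day A to D, and 46.0, 42.0 and 12.8 CPM in YBX3 KD 1 day B to D. Outside letter D the highest YBX3 KD library (46.0 CPM) lay just below the lowest control KD library (46.7 CPM). Its log2 fold change was -0.37 (SE 0.28, adjusted p = 0.578) with and -0.35 (SE 0.06, adjusted p = 0.00539) without D. Gins4 read 32.6, 37, 34.7 and 19.9 CPM in control KD 0 day, 35.8 and 32.5 CPM in control KD 1 day, 28.2, 32.9, 30.1 and 21.7 CPM in YBX3 KD 0 day and 28.3, 28.1 and 14.5 CPM in YBX3 KD 1 day, in letter order. YBX3 KD 0 day B, at 32.9 CPM, lay within the control range, so the groups overlapped even without D. The fold change of Gins4 was -0.29 (SE 0.19) with and -0.24 (SE 0.06, adjusted p = 0.0345) without D. Gins3, the remaining GINS subunit, was at -0.09 (adjusted p = 0.402) and Mcm10, a helicase cofactor, at -0.31 (adjusted p = 0.0558), so not all GINS subunits passed, although no difference between subunits was tested. With all libraries the 6 fold changes ran from -0.43 to -0.07, and the smallest adjusted p was 0.505.

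Of the sliding clamp and its loader, 5 of 6 fell without letter D. Pcna went from 207 ± 7.94 CPM (SD, 4 control KD libraries) to 161 ± 8.92 CPM (SD, 5 YBX3 KD libraries), a log2 fold change of -0.37 (SE 0.05, adjusted p = 0.00253). Among the loader subunits, Rfc4 (-0.41), Rfc2 (-0.27), Rfc5 (-0.26) and Rfc3 (-0.25) fell on the log2 scale, and Rfc1, the large subunit, had a value of -0.14 (adjusted p = 0.106). Rfc3 was at 46.1, 52.7, 47.9 and 23.8 CPM in control KD 0 day and 46.2 and 41.4 CPM in control KD 1 day, and at 41.5, 43.4, 38.1 and 34.2 CPM in YBX3 KD 0 day and 36.3, 43.1 and 20.8 CPM in YBX3 KD 1 day, in letter order. Leaving letter D aside, its control KD libraries lay at 46.1 to 52.7 CPM and its YBX3 KD libraries at 36.3 to 43.4 CPM. With all libraries the fold changes of the 6 genes ran from -0.43 to -0.12, and none passed (smallest edgeR adjusted p = 0.523).

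Of the primase and polymerases, 7 of 9 fell without letter D. Pold2, the accessory subunit of DNA polymerase delta, had the largest fold change of the 53 genes and the smallest p in the fit of all libraries. It (chr11:5822180-5828292) read 67.1, 65.6, 78.0 and 33.7 CPM in control KD 0 day A to D and 67.5 and 57.5 CPM in control KD 1 day C and D. In YBX3 KD it read 42.2, 44.3, 44.8 and 31.3 CPM at 0 day (A to D) and 51.7, 47.0 and 18.2 CPM at 1 day (B to D). Letter D of control KD 0 day was the only control KD library that overlapped the YBX3 KD range of 18.2 to 51.7 CPM. The log2 fold change was -0.62 (SE 0.23, 95% interval -1.13 to -0.12, edgeR adjusted p = 0.206), -0.69 with the block (SE 0.15, adjusted p = 0.0240), and -0.61 without letter D (SE 0.07, adjusted p = 0.00107). Its catalytic partner Pold1 was at -0.35 and the further subunit Pold3 at -0.23 without D, both past the threshold.

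Pola1, the catalytic subunit of polymerase alpha that extends the primers, was at 92.3, 93.5, 85.2 and 30.5 CPM in control KD 0 day A to D, 103 and 74.9 CPM in control KD 1 day C and D, 68.6, 68.4, 74.5 and 40.9 CPM in YBX3 KD 0 day A to D and 76.6, 86.4 and 13.9 CPM in YBX3 KD 1 day B to D. Its groups overlapped narrowly without D, with YBX3 KD 1 day C at 86.4 CPM above control KD 0 day C at 85.2 CPM. The log2 fold change was -0.35 (SE 0.05, adjusted p = 0.00370) without D and -0.38 (SE 0.37, adjusted p = 0.665) with D. Pola2 (-0.37), Prim2 (-0.28) and the catalytic subunit of polymerase epsilon, Pole (-0.29), also fell on the log2 scale without D. The primase subunit Prim1 (-0.17, adjusted p = 0.148) and Pole2 (-0.18, adjusted p = 0.116) did not pass. With letter D, none of the 9 passed and their fold changes ran from -0.62 to -0.17.

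Both genes of Okazaki fragment maturation and all 3 subunits of the single-strand binding protein RPA fell without letter D. Lig1, the ligase that seals the fragments (chr7:13011239-13045350), was at 137, 132, 132 and 63.5 CPM in control KD 0 day and 143 and 119 CPM in control KD 1 day, and at 99.1, 106, 98.8 and 72.2 CPM in YBX3 KD 0 day and 104, 109 and 34.4 CPM in YBX3 KD 1 day, in letter order. The YBX3 KD libraries A to C lay within 98.8 and 109 CPM, below the 132 to 143 CPM of the control KD libraries A to C. Its log2 fold change was -0.44 (SE 0.25, adjusted p = 0.445) with D and -0.41 (SE 0.04, adjusted p = 0.000690) without D. The flap nuclease Fen1 was at -0.45 (SE 0.07, adjusted p = 0.00363) without D and at -0.46 with D, where it did not pass (adjusted p = 0.593).

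Rpa3, the smallest RPA subunit (chr6:8255929-8259173), read 23.8, 27.2, 24.1 and 15.7 CPM in control KD 0 day A to D, 25.5 and 22.7 CPM in control KD 1 day C and D, 17.8, 21.1, 17.5 and 15.7 CPM in YBX3 KD 0 day A to D and 20.7, 20.8 and 10.4 CPM in YBX3 KD 1 day B to D. Control KD 0 day D and YBX3 KD 0 day D were level at 15.7 CPM. Its log2 fold change was -0.39 (SE 0.17, edgeR adjusted p = 0.277), -0.44 with the block (SE 0.11, adjusted p = 0.0377) and -0.38 without D (SE 0.07, adjusted p = 0.00983). The large subunit Rpa1 was at 304, 288, 317 and 164 CPM in control KD 0 day, 352 and 246 CPM in control KD 1 day, 232, 248, 246 and 170.1 CPM in YBX3 KD 0 day and 277, 258 and 114 CPM in YBX3 KD 1 day, in letter order. Without D its log2 fold change was -0.35 (SE 0.05, adjusted p = 0.00310), and that of Rpa2 was -0.40 (SE 0.08, adjusted p = 0.0135). With letter D the 3 fold changes ran from -0.41 to -0.34 and none passed. The subunits work as a trimer and lay at 76.3 to 80.0% of control without D.

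In nucleotide supply, 3 of 5 fell without letter D. Thymidylate synthase (Tyms, -0.40, adjusted p = 0.000918), thymidine kinase (Tk1, -0.39, adjusted p = 0.00109) and the large ribonucleotide reductase subunit Rrm1 (-0.26, adjusted p = 0.0172) passed. Rrm2, the most abundant gene of the group per length, was at 531 ± 49.2 CPM (SD, 4 control KD libraries) and 474 ± 63.4 CPM (SD, 5 YBX3 KD libraries) and did not pass (-0.18, adjusted p = 0.274). Dut, the dUTPase that keeps uracil out of DNA, was at 65.4, 94.6, 77.4 and 37.3 CPM in control KD 0 day and 82.4 and 76.5 CPM in control KD 1 day, and at 58.7, 71.1, 61.6 and 46.1 CPM in YBX3 KD 0 day and 79.9, 63.5 and 28.2 CPM in YBX3 KD 1 day, in letter order. Control KD 0 day A (65.4 CPM) lay inside the YBX3 KD range, and the log2 fold change of -0.28 without D did not pass (SE 0.11, adjusted p = 0.145). With all libraries none of the 5 passed, with fold changes from -0.42 to -0.14 and a smallest edgeR adjusted p of 0.583.

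Of the 4 G1/S regulators, 2 fell without letter D. E2f2 (chr4:135899585-135923368), a transcription factor of the E2F family, was at 28.2, 26.4, 25.4 and 7.28 CPM in control KD 0 day A to D and 15.3 and 21.7 CPM in control KD 1 day C and D. In YBX3 KD it was at 18.3, 16.7, 16.7 and 12.4 CPM at 0 day (A to D) and 11.5, 15.4 and 4.48 CPM at 1 day (B to D). At 0 day the groups without D did not overlap, and at 1 day control KD C (15.3 CPM) and YBX3 KD C (15.4 CPM) were level. The log2 fold change was -0.59 (SE 0.31, adjusted p = 0.401) with and -0.50 (SE 0.11, adjusted p = 0.0137) without D. Cyclin E1 (Ccne1, -0.38, adjusted p = 0.0456) passed. Its paralog Ccne2 was at -0.07 (adjusted p = 0.677) and E2f1, the best known activator E2F, was at 45.4 ± 3.27 CPM (SD, 4 control KD libraries) and 45.6 ± 1.93 CPM (SD, 5 YBX3 KD libraries), with a 95% interval of its log2 fold change of -0.14 to 0.13 without D. With all libraries the 4 fold changes ran from -0.59 to -0.04 and none passed.

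All 5 genes of chromatin assembly and maintenance DNA methylation fell without letter D, and 3 of them were among the 7 past the stricter limit. Chaf1b, a subunit of the histone chaperone CAF-1 (chr16:93680768-93703003), was at 57.0, 55.7, 56.4 and 20.1 CPM in control KD 0 day A to D and 60.7 and 49.1 CPM in control KD 1 day C and D, and in YBX3 KD at 38.2, 40.2, 40.2 and 28.6 CPM at 0 day (A to D) and 43.6, 39.8 and 12.4 CPM at 1 day (B to D). Without D the YBX3 KD libraries lay within 38.2 and 43.6 CPM and the control KD libraries within 55.7 and 60.7 CPM. Its log2 fold change was -0.52 (SE 0.29, adjusted p = 0.428) with and -0.52 (SE 0.05, adjusted p = 0.000326) without D. The histone chaperone Asf1b was at -0.53 (SE 0.05, adjusted p = 0.000263), and Uhrf1, which brings Dnmt1 to newly copied DNA, at -0.51 (SE 0.05, adjusted p = 0.000301). Dnmt1 was at 228, 197, 235 and 96.5 CPM in control KD 0 day, 222 and 176 CPM in control KD 1 day, 189.9, 181, 196 and 138 CPM in YBX3 KD 0 day and 176, 169 and 81.4 CPM in YBX3 KD 1 day, in letter order, a log2 fold change of -0.27 (SE 0.06, adjusted p = 0.0223) without D. With letter D the 5 fold changes ran from -0.57 to -0.25 and none passed, at a smallest adjusted p of 0.428.

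Both fork protection genes fell without letter D. Timeless was at 65.5, 62.9, 67.1 and 19.6 CPM in control KD 0 day, 70.5 and 50.4 CPM in control KD 1 day, 55.2, 57.9, 58.1 and 34.2 CPM in YBX3 KD 0 day and 57.5, 48.8 and 10.2 CPM in YBX3 KD 1 day, in letter order. Its partner Tipin was at 45.4, 46.1, 42.2 and 20.5 CPM in control KD 0 day, 50.9 and 39.2 CPM in control KD 1 day, 35, 40.5, 40.0 and 27.1 CPM in YBX3 KD 0 day and 43.2, 41.9 and 14.9 CPM in YBX3 KD 1 day. The log2 fold changes without D were -0.26 (SE 0.07, adjusted p = 0.0287) and -0.23 (SE 0.06, adjusted p = 0.0335). With all libraries they were -0.28 and -0.23, and neither passed (smallest adjusted p = 0.699).

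**Figure D4:**
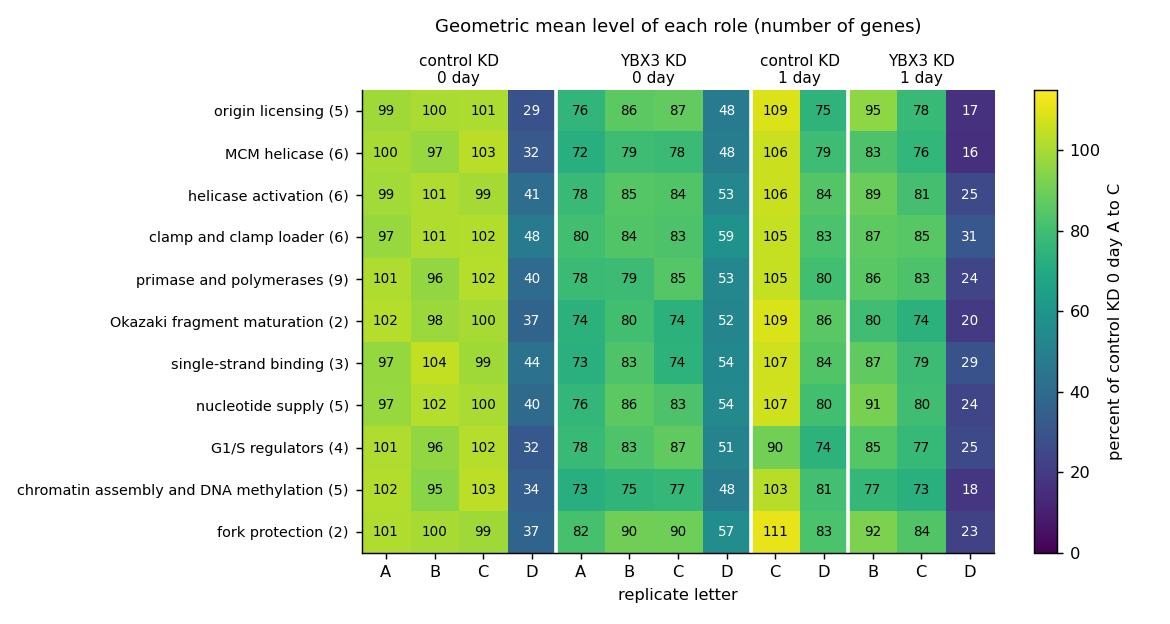
Geometric mean level of each of the 11 roles in each library, as a percent of control KD 0 day A to C, with the number of genes in brackets. The D columns are the lowest of each group in every role, and in the YBX3 KD columns A to C every role lies below 100%, between 72.3% (MCM helicase, 0 day A) and 95.5% (origin licensing, 1 day B).

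The promoter letters shown above were set beside the fold changes, with no test between the sets. Without letter D, 13 of the 16 genes with an E2F word fell, with a median log2 fold change of -0.33, and 29 of the 37 without one fell, with a median of -0.35. The 4 genes with a seed word of siRNA 08 had log2 fold changes of -0.39 (Mcm3), -0.53 (Mcm5), -0.41 (Gins2) and -0.35 (Rpa1). Mcm10, with that of siRNA 05, was at -0.31 (adjusted p = 0.0558), and Chaf1a, with those of siRNA 05 and 06, at -0.33 (adjusted p = 0.00903), beside the median of -0.35 over the 53.

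Libraries of the same letter were also paired without a model. At 0 day, YBX3 KD was below control KD for 53 of 53 genes in letter A (median log2 ratio -0.40), 53 in B (-0.24) and 50 in C (-0.33), against 47.6%, 52% and 50.5% of all genes. In letter D it was below for 2 genes and above for 51 (median 0.43), against 46.3% of all genes below. At 1 day, YBX3 KD was below control KD for 51 genes in letter C (-0.40) and for 53 in D (-1.84), against 49.6% and 48.8% of all genes. The pair of letter D at 0 day was thus the only one of 6 in which most of the genes were higher in YBX3 KD. The geometric mean in YBX3 KD 0 day D (39.1 CPM) lay between those of the libraries labelled control KD 0 day D (28.1 CPM) and control KD 1 day D (60.2 CPM). Whether those 2 labels were exchanged was not tested.

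Next, the knockdown was compared within each time point. In proliferating myoblasts the median log2 fold change was -0.23, 48 of 53 values were below 0 and none passed by edgeR, where 0.427% of all genes did. The count at an unadjusted p under 0.05 was 0 by edgeR, against 11% of all genes, DESeq2 called 0 after adjustment and limma-voom called 2 lower, against 4.61%. With the block the median was -0.11, 2 genes had an unadjusted p under 0.05, against 20.7% of all genes, and none passed. Without letter D, with 3 libraries on each side, 25 genes fell (median -0.33), against 2.82% of all genes called lower. These 25 included 5 of the 6 helicase subunits, all but Mcm2, together with Pcna, Cdc45, Tyms and Tk1. The smallest p was that of Pold2, with a log2 fold change of -0.59 (SE 0.31, adjusted p = 0.540) with D and -0.69 (adjusted p = 0.00472) without D.

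In differentiating myoblasts the median was -0.58, all 53 values were below 0 and none passed by edgeR, where 0.0712% of all genes did. The count at an unadjusted p under 0.05 was 0 by edgeR, against 7.79% of all genes, and neither DESeq2 nor limma-voom called a gene after adjustment. With the block the median was -0.95 and 50 of the 53 had an unadjusted p under 0.05, against 27.1% of all genes, but none passed after adjustment (smallest adjusted p = 0.0756). Gins4 had the smallest p, with a log2 fold change of -0.53 (SE 0.30, adjusted p = 0.721). Without letter D, 1 control KD library is left against 2 of YBX3 KD and is assumed to vary like the other groups. The median was then -0.35, 38 genes had an unadjusted p under 0.05, against 10.2% of all genes, and 0 passed by edgeR after adjustment, with the smallest adjusted p for Chaf1b and Uhrf1 at 0.0950, and DESeq2 called 12, against 0.996% of all genes called lower. With YBX3 KD 1 day D alone left out, the median at 1 day was -0.16 in place of -0.58.

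Whether YBX3 KD acted differently at 1 day than at 0 day was tested directly as an interaction. None of the 53 passed by edgeR, and 0% of all genes did. The median interaction on the log2 scale was -0.35 with all libraries and -0.03 without letter D. Gins4 had the smallest p (-0.39, SE 0.38, adjusted p = 1.00), and without D its value was -0.14 (SE 0.14). DESeq2 and limma-voom called none either, and 0 of the 53 had an unadjusted p under 0.05 by edgeR, against 2.64% of all genes. With the block the median was -0.86 and 27 of the 53 had an unadjusted p under 0.05, against 11% of all genes, but none passed (smallest adjusted p = 0.433). Without letter D and with the block the median was -0.04, so the blocked value depended on letter D. In control KD of that letter the change over the day went against the other letters.

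The last comparisons ask how the genes moved over the first day in differentiation medium. Over both siRNA groups none of the 53 passed by edgeR, and neither did any other gene (0% of all genes). The median log2 fold change of 1 day over 0 day was -0.06, with 45 values below 0, and without letter D it was 0.06 with 10 below 0. With the block and all libraries it was 0.06 with 6 below 0, 0 of the 53 had an unadjusted p under 0.05, against 4.74% of all genes, and none passed. The count at an unadjusted p under 0.05 was 0 with all libraries and 7 without D by edgeR, against 2.83% and 11.6% of all genes, and DESeq2 called 0 and limma-voom 0 with all libraries. E2f2 had the most negative value, at -0.45 (SE 0.33) with and -0.53 (SE 0.11, adjusted p = 0.0721) without D. Without D, E2f2 was lower at 1 day than at 0 day in each letter, at 15.3 against 25.4 CPM in control KD C, 15.4 against 16.7 CPM in YBX3 KD C and 11.5 against 16.7 CPM in YBX3 KD B. The next lowest p among negative values were those of Dnmt1 (-0.14, SE 0.23), Rfc3 (-0.11, SE 0.20), Gins4 (-0.08, SE 0.19) and Timeless (-0.15, SE 0.38), all at an adjusted p of 1.00. Among positive values they were those of Dut (0.06, SE 0.25), Cdc45 (0.06, SE 0.29), Rpa1 (0.04, SE 0.22), Tipin (0.05, SE 0.26) and Pola1 (0.05, SE 0.38). Without D these 5 positive values were 0.12 to 0.20 on the log2 scale and none passed.

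Within control KD the median log2 fold change of 1 day over 0 day was 0.14 (52 of 53 above 0) with all libraries and 0.08 without D, and within YBX3 KD it was -0.20 (53 of 53 below 0) and 0.05. None of the 53 passed in either by edgeR, where 0% and 0% of all genes did, and 0 had an unadjusted p under 0.05, against 1.44% and 4.28% of all genes. DESeq2 and limma-voom also called 0 in both. With the block the medians were 0.55 in control KD, with 7 of the 53 at an unadjusted p under 0.05 against 6.81% of all genes, and -0.30 in YBX3 KD, with 0 against 7.43%, and none passed. Tipin had the smallest p in control KD (0.22, SE 0.40, adjusted p = 1.00) and E2f2 in YBX3 KD (-0.62, SE 0.45, adjusted p = 0.988). By letter, 1 day was below 0 day in control KD for 14 of 53 genes in C (median log2 ratio 0.07) and 0 in D (1.06), against 46.1% and 50.5% of all genes. In YBX3 KD it was below for 11 genes in B (0.10), 33 in C (-0.05) and 53 in D (-1.20), against 49.5%, 49.6% and 53% of all genes. The 2 medians of letter D were thus of opposite sign and those of B and C lay between -0.05 and 0.10.

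Genes of neighbouring pathways were read from lists that hold none of the 53. In the fit without letter D, 6.68% of all 17271 genes tested were called lower. Without letter D, 14 of 31 other replication genes fell and 0 rose (median log2 fold change -0.18), among them Ssrp1, a subunit of the histone chaperone FACT (-0.31, adjusted p = 0.00663), and Rnaseh2c, a subunit of the RNase that removes ribonucleotides (-0.35, adjusted p = 0.0473). Of 16 other nucleotide supply genes 6 fell, among them Paics, an enzyme of purine synthesis (-0.23, adjusted p = 0.0192), and of 11 genes of chromatin replication 8 fell, among them Asf1a, the paralog of Asf1b (-0.37, adjusted p = 0.00361). Of 24 other G1/S regulators 7 fell and 3 rose, Cdkn1a, Ccnd1 (cyclin D1, 0.29, edgeR adjusted p = 0.0220) and Rb1 (0.24, adjusted p = 0.0227). Ccnd1 and Rb1 did not pass with all libraries. With all libraries none of these lists had a gene called lower.

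Mitosis genes, which act after S phase, were read beside them. Of 37 such genes, 36 fell without letter D (median log2 fold change -0.36), against 6.68% of all genes called lower. With all libraries 0 of 37 passed (median -0.41). Examples without D were Ccnb2, a mitotic cyclin (-0.48, adjusted p = 0.00121), and Pttg1, securin (-0.45, adjusted p = 0.00173). Their geometric mean, as a percent of control KD 0 day A to C, was 46.3 in control KD 0 day D, 80.6 in control KD 1 day D, 49.7 in YBX3 KD 0 day D and 19.2 in YBX3 KD 1 day D, against 37.6, 80.4, 52.3 and 22.4 for the replication genes.

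Cdkn1a (p21), the inhibitor of the cyclin-dependent kinases that start S phase, rose. It was at 116, 129, 123 and 274 CPM in control KD 0 day A to D, 119 and 139 CPM in control KD 1 day C and D, 288, 301, 290.0 and 277 CPM in YBX3 KD 0 day A to D and 311, 261 and 364 CPM in YBX3 KD 1 day B to D. Control KD 0 day D, the control library in which the replication genes were lowest, lay within the YBX3 KD range, and the other 5 control KD libraries lay below it. The log2 fold change was 1.01 (SE 0.20, edgeR adjusted p = 0.0199) with all libraries and 1.26 (SE 0.06, adjusted p = 1.92e-05) without letter D. The other CDK inhibitors among the listed G1/S regulators were not called higher. Without letter D, Cdkn2c fell (-0.40, edgeR adjusted p = 0.00551), and Cdkn1b (-0.01, adjusted p = 0.970) did not pass. Cdkn1c, at 0.09 to 1.18 CPM, did not pass either (0.06, adjusted p = 0.943). With all libraries none of these passed. The part of Cdkn1a in the levels of the replication genes was not tested.

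**Figure D5:**
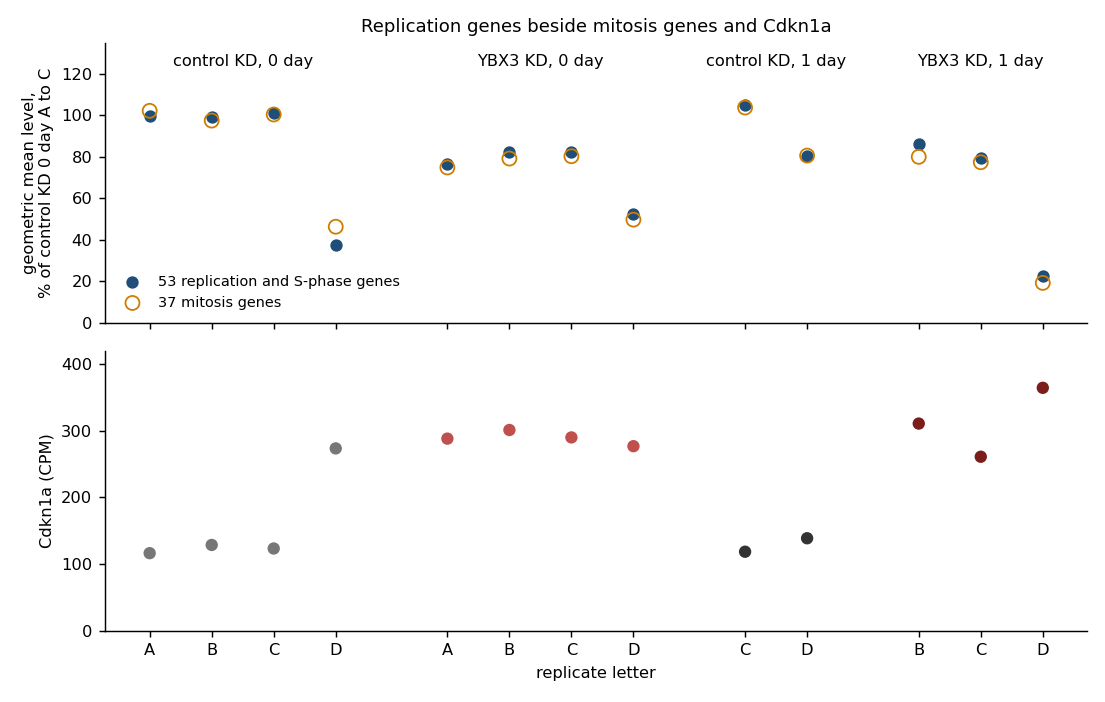
Upper panel, geometric mean level of the 53 replication and S-phase genes (filled) and of 37 mitosis genes (open) by library, in percent of control KD 0 day A to C; lower panel, Cdkn1a in CPM. In the D libraries the mitosis genes stand at 19.2 to 80.6% and the replication genes at 22.4 to 80.4%, and Cdkn1a in control KD 0 day D (274 CPM) lies among the YBX3 KD libraries (261 to 364 CPM).

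Markers of other cell states were set beside these values. Of the 8 myoblast markers, 2 rose with all libraries, the cadherin Cdh2 and the acetylcholine receptor subunit Chrna1, and 3 rose without letter D, these and Myod1. The log2 fold change of Myod1, a gene at low level, was 1.14 (edgeR adjusted p = 0.00632) without D and 1.11 (adjusted p = 0.0726) with all libraries. The summed level of the 8 markers was 1079.6 to 1243 CPM in control KD 0 day, 1018 to 1052 CPM in control KD 1 day, 1253 to 1376 CPM in YBX3 KD 0 day and 1048 to 1450.0 CPM in YBX3 KD 1 day. In letter D the myoblast markers went different ways. Desmin (Des) was at 51.9, 45.2, 43.7 and 54.8 CPM there, above every other library (15.5 to 25.9 CPM), and Itga7, an integrin, was the highest of each group in D. Myf5, a myogenic transcription factor, was at 31.3, 44.1, 43.7 and 34.2 CPM in D, below every other library (47.7 to 73.5 CPM), and Cdh15 was the lowest of each group in D. The other 4 markers were neither the highest nor the lowest in D of all groups. Of the 10 markers of differentiated muscle, 7 passed the filter and none was called. These 7 summed to 6.45 to 55.7 CPM in control KD 0 day and 7.08 to 25.1 CPM in control KD 1 day. In YBX3 KD they summed to 22.3 to 60.3 CPM at 0 day and 15.5 to 123 CPM at 1 day. Letter D had the lowest sum in control KD 0 day (6.45 CPM), control KD 1 day (7.08 CPM) and YBX3 KD 0 day (22.3 CPM). In YBX3 KD 1 day its sum of 16.2 CPM lay between those of B (15.5 CPM) and C (123 CPM). Of the 6 fibroblast markers 2 were tested, Pdgfra and Dcn, and 0 called. These 2 summed to 60.4 to 81.2 CPM in the letter D libraries and 29.9 to 62.0 CPM in the others. Of the 4 endothelial and haematopoietic markers 2 were tested, Cdh5 and Cd68, and 0 called. They summed to 2.35 to 3.74 CPM in all libraries. The part of these markers in the levels of the replication genes was not tested.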

How the data were processed

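RNA of C2C12 cells was sequenced in 13 libraries in 4 groups, given by the labels. The authors mapped reads with Salmon (version not given in the sources used here) to GRCm39 (Gencode M30). The values they deposited are estimated counts per gene. These expected counts are whole numbers and not normalized, and the step that made them whole, and whether strand was used, are not given in the sources used here. They were analysed as deposited. Totals ranged from 33451547 to 71811371 counts, and CPM values carry counting error beside the spread between libraries.

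Tests were run with edgeR 4.0.16 in R 4.3.3 (filterByExpr on the 4 groups, TMM factors of 0.969 to 1.02, quasi-likelihood test, Benjamini-Hochberg adjustment over all 16848 genes tested). The comparisons over both time points or both siRNA groups used siRNA and day as terms, and the others 1 coefficient per group, with all 13 libraries. Standard errors are those implied by the log2 fold change and its F. Library ratios added 0.01 CPM before the log2. Scripts were tested on simulated data. DESeq2 1.42.0, limma 3.58.1, other size factors, no filter, the replicate block, leaving out each library and leaving out letter D were alternatives. The fits without letter D combined with the block or with DESeq2, and limma-voom, were added after the data were seen. The authors used DESeq2 for their own tests.

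Libraries were paired by the letter in the sample descriptions, which number 1 in the titles does not follow at 1 day. Deviations of log2 CPM from group means correlated over 0.1 in all 16 pairs of the same letter (0.117 to 0.730, median 0.338). They did so in 11 of 46 other pairs (median -0.146). With an offset of 0.01, 15 of the 16 pairs were over 0.1. Deviations within a group cancel out, so high values in pairs of the same letter lower those of the others. Pairs within letter D lay at 0.409 to 0.730. Pairs within A, B or C lay at 0.117 to 0.358, and control KD 0 day C with YBX3 KD 1 day B reached 0.419. The comparison therefore cannot decide whether A to C are paired, and the letter was used as the descriptions give it. No 2 libraries of the same group were alike within counting error, and pairs across groups were not compared in this way.

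The genes, roles, lists and tests were chosen with earlier results of these data known. Values in every library were given for Ybx3, for the 5 genes with the smallest p in each direction over the knockdown and over the day, and for the smallest p in each other comparison. Of the other lists, the 3 smallest p could be named. Mcm5, Mcm7, Des and Myf5 were given in full, and examples within roles chosen, after their values were seen. Ccnd1, Rb1 and the CDK inhibitors beside Cdkn1a were also named after their values were seen. Promoters and 3′ UTRs were read from GRCm39 and GENCODE vM39 canonical transcripts with Python 3.11.15. The strands listed for 1 siRNA were not complementary, and it was left out.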

Additional observations from a re-analysis of the deposited data

Results flagged for a closer look

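In the groups of 4 libraries at 0 day, a library was marked where its gap to the nearest of the others, divided by the group's range, was over Dixon's 95% critical value for 4 values, which chance passes in about 1 of 20 groups. Over all tested genes a library was marked in 17.4% in control KD 0 day, with letter D as the lowest in 5.46%, and in 7.39% in YBX3 KD 0 day, with letter D as the lowest in 1.48%. The lowest library of control KD 0 day, letter D, was marked for 38 of the 53 genes and for their geometric mean, 28.1 CPM. Among origin licensing genes it held Orc1 4.48 CPM, Orc6 14.9 CPM and Cdc6 8.55 CPM. Of the helicase subunits it held Mcm3 57.0 CPM, Mcm4 59.5 CPM, Mcm5 58.8 CPM, Mcm6 100.4 CPM and Mcm7 101 CPM. Genes of helicase activation stood at Mcm10 13.2 CPM, Cdc45 21.6 CPM, Gins1 9.20 CPM, Gins2 15.2 CPM and Gins3 6.82 CPM. The clamp and its loader read Pcna 85.9 CPM, Rfc1 67.9 CPM, Rfc2 41.7 CPM, Rfc4 11.5 CPM and Rfc5 22.9 CPM. Levels of the primase and polymerases were Pola1 30.5 CPM, Prim1 21.8 CPM, Prim2 23.4 CPM, Pold1 29.0 CPM, Pold3 29.4 CPM and Pole2 8.21 CPM. Okazaki fragment maturation was at Fen1 26.7 CPM and Lig1 63.5 CPM. Nucleotide supply genes read Rrm1 130.4 CPM, Rrm2 215 CPM, Tyms 25.2 CPM and Tk1 56.6 CPM. The G1/S regulators stood at Ccne1 16.7 CPM, Ccne2 8.86 CPM and E2f2 7.28 CPM. Chromatin assembly and DNA methylation genes were at Chaf1b 20.1 CPM, Asf1b 18.4 CPM and Uhrf1 67.0 CPM. Fork protection genes were at Timeless 19.6 CPM and Tipin 20.5 CPM. The other 3 libraries of the group lay close together, between 74.1 and 75.8 CPM in the geometric mean of the 53 genes.

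In YBX3 KD 0 day the lowest library was again letter D, marked for 12 genes. Replisome genes among them read Gins2 19.1 CPM, Rfc2 48.3 CPM, Rfc4 12.3 CPM, Rfc5 29.5 CPM, Pola2 34.5 CPM, Pold1 37.5 CPM and Pole2 14.4 CPM. The remaining ones read Tyms 35.1 CPM, Chaf1b 28.6 CPM, Asf1b 23.8 CPM, Uhrf1 96.5 CPM and Timeless 34.2 CPM.

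For 5 genes every control KD letter was higher at 1 day than at 0 day and every YBX3 KD letter was lower. In letter D this held for all 53 genes, so only letters B and C set the 5 apart. The share of all tested genes with this pattern is not given, and the count is not read as a result about the 53. The mean step in YBX3 KD minus that in control KD, on the log2 scale, was -0.68 for Gins4, -0.82 for Prim2, -0.54 for Pold3, -0.97 for Rrm1 and -1.39 for Timeless. The interaction, which is the test of this difference, passed in edgeR for none of them. Letter D had the largest step of both groups in the median of the 53 genes. For the genes called over the day without D, the change in control KD letter D went mostly against the other letters.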

How the results depend on the processing

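Counts of the 53 genes that passed depended on the letter D libraries. Over both time points it was 0 with all 13 libraries, 42 without letter D, 40 without letter D and with the replicate block, 44 without letter D by DESeq2, 14 by limma-voom with sample quality weights, and 2 with the replicate block (letter) on all libraries. At 0 day it was 0 with all libraries, 25 without letter D, 20 without letter D and with the block, 33 without letter D by DESeq2 and 2 by limma-voom. Without letter D, DESeq2 also called 12 genes at 1 day, 1 for the day over both siRNA groups and 1 for the day in control KD, where edgeR called 0. The block changed no other count, but moved the medians at 1 day (-0.58 to -0.95), of the interaction (-0.35 to -0.86) and of the day in control KD (0.14 to 0.55), and turned that of the day (-0.06 to 0.06). With each library left out in turn the count stayed 0 in all 7 comparisons. The cause was not tested. Of all genes tested without letter D, edgeR called 6.68% lower over both time points and 2.82% lower at 0 day. That share is not given for the fits without letter D that used the block. For DESeq2 without letter D it is given only for the knockdown at 1 day. Whether the other counts of these fits stand out from all genes was not tested.

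The median log2 fold change of the 53 genes ran, over the libraries left out, from -0.51 (without control KD 0 day D) to -0.19 (without YBX3 KD 1 day D) for the knockdown, -0.48 to -0.08 at 0 day and -0.84 to -0.16 at 1 day. At 0 day it was -0.12, -0.15 and -0.09 without control KD A, B or C, -0.48 without control KD D and -0.08 without YBX3 KD D. It ran from -0.18 to 0.16 for the day, -0.12 to 0.33 for the day in control KD, -0.50 to 0.19 for the day in YBX3 KD and -0.63 to 0.03 for the interaction, so the directions over the day depended on single libraries. Values of the day that changed sign with 1 library left out, given as lowest and highest, were Dnmt1 -0.25 and 0.023, Rfc3 -0.21 and 0.026, Gins4 -0.17 and 0.067, Timeless -0.31 and 0.11, Dut -0.073 and 0.24, Cdc45 -0.068 and 0.265, Rpa1 -0.080 and 0.21, Tipin -0.063 and 0.24, and Pola1 -0.11 and 0.30 on the log2 scale. Other size factors, no filter and no day term changed none of the counts. Where a time point or siRNA group was left with 1 library, that library was assumed to vary like the other groups.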
